A study of Homo sapiens with 4 samples.

Results

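The constitutive proteasome genes were followed in RNA sequencing of MDA-MB-231, an established human line of triple-negative breast cancer (a tumour without oestrogen receptor, progesterone receptor or HER2 amplification). Members were taken by symbol: every gene whose name consists of PSM, a letter from A to G and a number, leaving out the immunoproteasome genes PSMB8, PSMB9 and PSMB10 and the activator genes PSME1 and PSME2. This gave 43 of the 20804 genes in the table. There were 4 libraries, 2 from cells whose genotype label is miR-3662-KO, for a microRNA (KO), and 2 from wild-type cells (WT), with no drug, dose or time given in the labels. How the KO cells were obtained is not stated, nor whether the libraries of a group were separate cultures, clones or repeated preparations, so p-values measure only the spread between these libraries, which may be technical. The study's title names CRISPR interference and activation, and its design text names sorting by microRNA activity, so what the KO label stands for is uncertain.

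The proteasome degrades proteins tagged with ubiquitin. Its barrel-shaped 20S core is a stack of rings of alpha subunits, which form the gate, and beta subunits, of which PSMB5, PSMB6 and PSMB7 carry the protease sites. The 19S regulator caps the core: its base holds the PSMC ATPases, which unfold and thread the substrate, and its lid removes the ubiquitin chain. Dedicated chaperones assemble core and base, and when proteasome activity falls short the transcription factor NFE2L1 is known to raise subunit genes together. Triple-negative breast cancer lines are known to depend strongly on proteasome function.

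Expression was given as FPKM, fragments scaled to transcript length and library total, a scale that allows levels of different genes to be compared per length. FPKM summed to 528986 and 544650 in the KO libraries and to 504102 and 520527 in the WT libraries, and read depth is unknown. The labelled cell type was checked against its markers. VIM, the mesenchymal intermediate filament gene, stood between 1120 and 1321 FPKM. The oestrogen receptor gene ESR1 stood at or below 0.01 FPKM, the E-cadherin gene CDH1 at or below 0.03 and ERBB2, the HER2 gene, between 8.55 and 11.4. GATA3, a luminal factor gene, stood between 1.14 and 1.83 FPKM. The epithelial gene EPCAM was low and lower still in KO, at 0.34 and 0.05 FPKM in KO and 1.08 and 1.15 FPKM in WT (-0.83, limma adjusted p 0.010). The leukocyte genes PTPRC and CD3E were listed at 0 in every library. Of the 8 fibroblast, endothelial and leukocyte markers in the table COL1A1 was the only one tested, at 0.36 and 0.27 FPKM in KO and 1.11 and 1.45 in WT, and the other 7 stayed at or below 0.29 FPKM. Their part in the results was not tested.

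Genes were tested on log2(FPKM + 1) with limma, at an adjusted p under 0.05. Of the 43 members 41 passed the filter of 1 FPKM in 2 libraries. PSMA8, the testis form of an alpha subunit, and PSMB11, the thymus form of PSMB5, stayed at or below 0.02 FPKM in every library. Of the 41 tested members 2 were higher and 6 lower in KO. That is 19.5% of them, beside 27.0% of all 11786 tested genes, of which 16.2% were higher and 10.8% lower. With median-of-ratios scaling of the libraries the split was 1 member higher and 9 lower, and the median of all tested genes shifted by -0.095 on the log2 scale. Calls over all genes turned the same way, to 1413 higher and 1828 lower (27.5% called), against 1906 higher and 1278 lower without this scaling. The median log2 fold change was -0.023 over the members and 0.074 over all tested genes. The libraries of the groups did not overlap in 23 members, 7 above and 16 below WT, which is 56.1%, beside 68.0% of all tested genes. Taken over both directions, neither share of the members exceeded that of all genes. The share of all genes without overlap was not split by direction. Of the 41 members 27 had a fold change below the median of all tested genes.

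The members that passed were PSMD2, PSME3, PSMD3, PSMC4, PSMD11 and PSMB1, all lower in KO, and PSMA6 and PSMD10, both higher. The call of PSMD2 held when any of the 4 libraries was left out. PSME3 passed without either KO library but not without WT library 1 or 2. PSMA6 and PSMD3 passed only without KO library 1, PSMB1 and PSMC4 only without KO library 2, and PSMD11 and PSMD10 in none of the 4, always in the same direction. Because RNA came from whole cultures, fewer cells with a transcript and less of it per cell cannot be told apart.

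**Figure D1:**
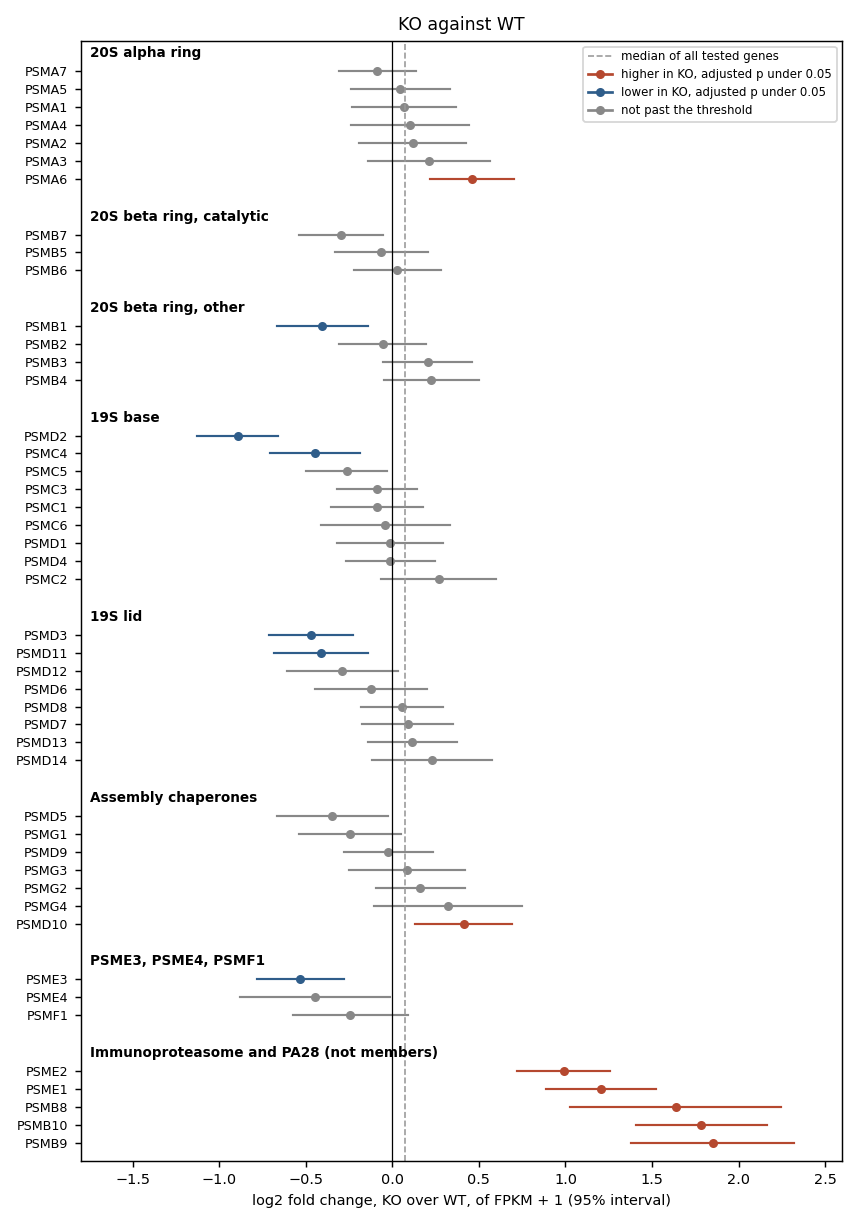
Log2 fold change of each tested member, KO over WT, on log2(FPKM + 1), by place in the complex (points: estimate, lines: 95% interval from limma). Most intervals cross 0; PSMD2 lies furthest to the left at -0.89, and the 5 immunoproteasome and PA28 genes at the bottom, which are not members, lie between 0.99 and 1.85.

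The base of the regulator held the largest change. PSMD2 (gene ID 5708, GRCh38 chr3:184298709-184309054, plus strand) encodes the large scaffold subunit where shuttle factors and the deubiquitinase USP14 dock. It stood at 225.5 and 219.8 FPKM in KO, against 430.7 and 399.5 FPKM in WT. Both KO libraries lay well below both WT libraries. The level fell to 222.7 ± 4.05 FPKM in KO, against 415.1 ± 22.0 FPKM in WT (mean ± SD, n = 2 each), so it decreased by 46.4%, with a log2 fold change of -0.89 ± 0.10 (SE, limma adjusted p 0.0020). PSMD1, the companion scaffold subunit of similar size, was at 55.8 and 65.7 FPKM in KO and at 64.9 and 57.7 FPKM in WT, with overlapping groups and a difference of -0.01 (95% interval -0.32 to 0.29). The ratio of PSMD2 to PSMD1 was 4.04 and 3.35 in KO and 6.64 and 6.93 in WT, so the transcripts of the scaffold pair stood closer to one another in KO.

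The promoter window of PSMD2 is shown because this gene carried the largest difference. The window (RefSeq, GRCh38.p14, chr3:184298991-184299290, plus strand) runs from 250 bases before to 50 bases after one annotated start, with GC boxes (GGGCGG, either strand) in capitals.
PSMD2: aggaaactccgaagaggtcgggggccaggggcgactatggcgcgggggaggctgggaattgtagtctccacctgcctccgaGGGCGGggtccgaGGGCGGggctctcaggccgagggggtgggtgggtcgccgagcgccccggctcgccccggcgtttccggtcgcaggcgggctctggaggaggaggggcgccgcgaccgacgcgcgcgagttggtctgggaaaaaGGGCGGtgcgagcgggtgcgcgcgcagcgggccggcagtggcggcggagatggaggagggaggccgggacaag
It holds 3 GC boxes, and no CCAAT box, no ETS site (CCGGAAG) and no antioxidant response element core (TGACNNNGC) on either strand. A GC box stood in the windows of 25 of the 37 members with a window (67.6%). It stood in 48.3% of all genes with a window, which include genes not tested here.

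Among the ATPases, PSMC4 fell. It was at 83.9 and 92.8 FPKM in KO, against 117.1 and 124.0 FPKM in WT, without overlap, a log2 fold change of -0.45 ± 0.11 (SE, limma adjusted p 0.025). The other 5 ATPase genes did not pass. PSMC5 was at 153.9 and 159.7 FPKM in KO and 187.9 and 189.2 FPKM in WT (-0.26, adjusted p 0.089), and passed under median-of-ratios scaling. PSMC2 lay on the other side, at 50.2 and 63.7 FPKM in KO and 48.5 and 45.1 FPKM in WT (0.27, adjusted p 0.195). PSMC1, PSMC3 and PSMC6 differed by -0.09 to -0.04. The 6 subunits are present in equal number in the ring, while the summed FPKM of their genes was 816 and 885 in KO and 935 and 936 in WT. PSMD4, a ubiquitin receptor between base and lid, was at 144.9 and 146.4 FPKM in KO and at 137.9 and 156.3 FPKM in WT, a difference of -0.01 (95% interval -0.27 to 0.25).

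In the lid, PSMD3 and PSMD11 fell and 6 subunits did not pass. PSMD3, a scaffold subunit, was at 118.3 and 115.8 FPKM in KO, against 156.7 and 168.5 FPKM in WT (-0.47 ± 0.11 SE, limma adjusted p 0.017). PSMD11, which bridges the lid and the alpha ring, was at 35.5 and 37.6 FPKM in KO, against 49.8 and 48.2 FPKM in WT (-0.41 ± 0.12 SE, limma adjusted p 0.035). In both genes the groups were apart by more than their libraries differed. PSMD14, the metalloprotease that cuts the ubiquitin chain off the substrate, was at 76.3 and 101.4 FPKM in KO and at 75.2 and 74.7 FPKM in WT (0.23, adjusted p 0.280), and the KO libraries differed more from each other than the nearer one did from WT. PSMD12 was at 32.9 and 38.6 FPKM in KO and at 47.1 and 40.6 FPKM in WT (-0.29, adjusted p 0.155), and passed with a correction for GC content (-0.52, adjusted p 0.0064). PSMD6, PSMD7, PSMD8 and PSMD13 differed by -0.12 to 0.12. The lid sums were 844 and 931 FPKM in KO and 910 and 923 FPKM in WT, so the sums overlapped.

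**Figure D2:**
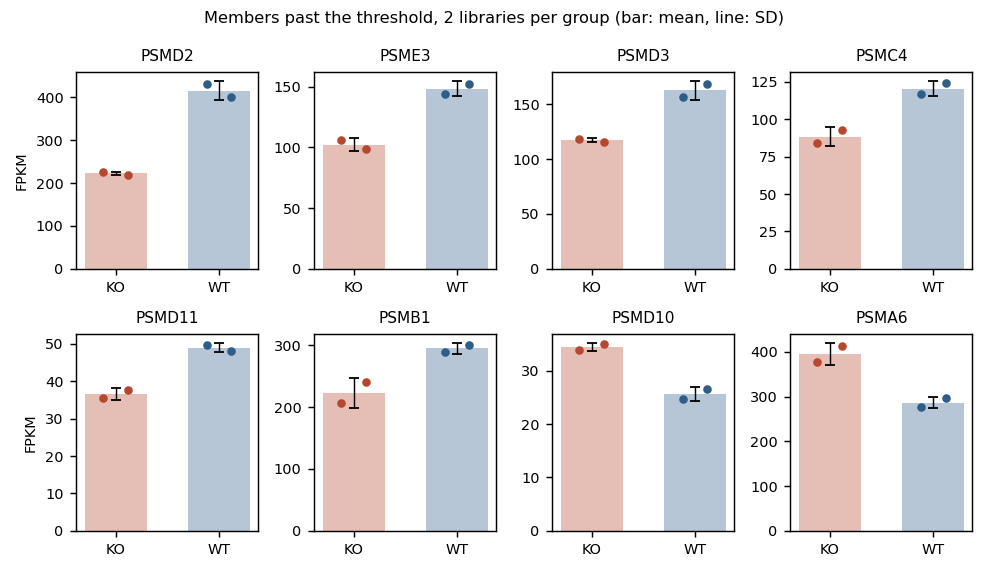
FPKM of the 8 members past the threshold in the 2 KO and 2 WT libraries, ordered by fold change (points: libraries, bars: means, lines: SD, axes from 0). The KO and WT points do not overlap in any panel, but the panels were chosen by the test on these same values. Of all tested genes 68.0% show no overlap. PSMD2 shows the widest gap, and PSMA6 and PSMD10 are the panels in which KO is higher.

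In the alpha ring of the core, PSMA6 rose and the 6 other ubiquitous subunits did not pass. PSMA6 (GRCh38 chr14:35278633-35317493, plus strand) was at 377.9 and 412.2 FPKM in KO, against 277.3 and 296.0 FPKM in WT, without overlap (0.46 ± 0.10 SE, limma adjusted p 0.017). The annotation lists 4 pseudogenes of PSMA6, and no source used here states how reads shared with such copies were counted. PSMA7 had the highest level of all members, at 872.8 and 898.7 FPKM in KO and 903.6 and 979.6 FPKM in WT (-0.09, 95% interval -0.31 to 0.14). PSMA1, PSMA2, PSMA3, PSMA4 and PSMA5 differed by 0.05 to 0.21, and each was higher in the second KO library than in the first. The ratio of PSMA7 to PSMA6 was 2.31 and 2.18 in KO and 3.26 and 3.31 in WT, although the complex holds these subunits in equal number.

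In the beta ring, the protease subunits did not pass and PSMB1 fell. PSMB5, the chymotrypsin-like subunit and main target of bortezomib, was at 258.2 and 307.8 FPKM in KO and at 294.6 and 294.8 FPKM in WT, a difference of -0.06 (95% interval -0.33 to 0.21). PSMB6, the caspase-like subunit, was at 288.5 and 294.4 FPKM in KO and at 267.0 and 305.8 FPKM in WT, a difference of 0.03 (-0.22 to 0.28). PSMB7, the trypsin-like subunit, was at 281.6 and 305.2 FPKM in KO and at 346.1 and 375.6 FPKM in WT. For PSMB5 and PSMB6 the KO and WT values overlapped, while those of PSMB7 did not, at a difference of -0.30 with an adjusted p of 0.071 that passed under median-of-ratios scaling. PSMB1, a structural subunit, was at 206.2 and 240.1 FPKM in KO, against 289.3 and 301.1 FPKM in WT, without overlap (-0.41 ± 0.11 SE, limma adjusted p 0.034). The other structural subunits PSMB2, PSMB3 and PSMB4 differed by -0.06, 0.21 and 0.23 and did not pass.

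**Figure D3:**
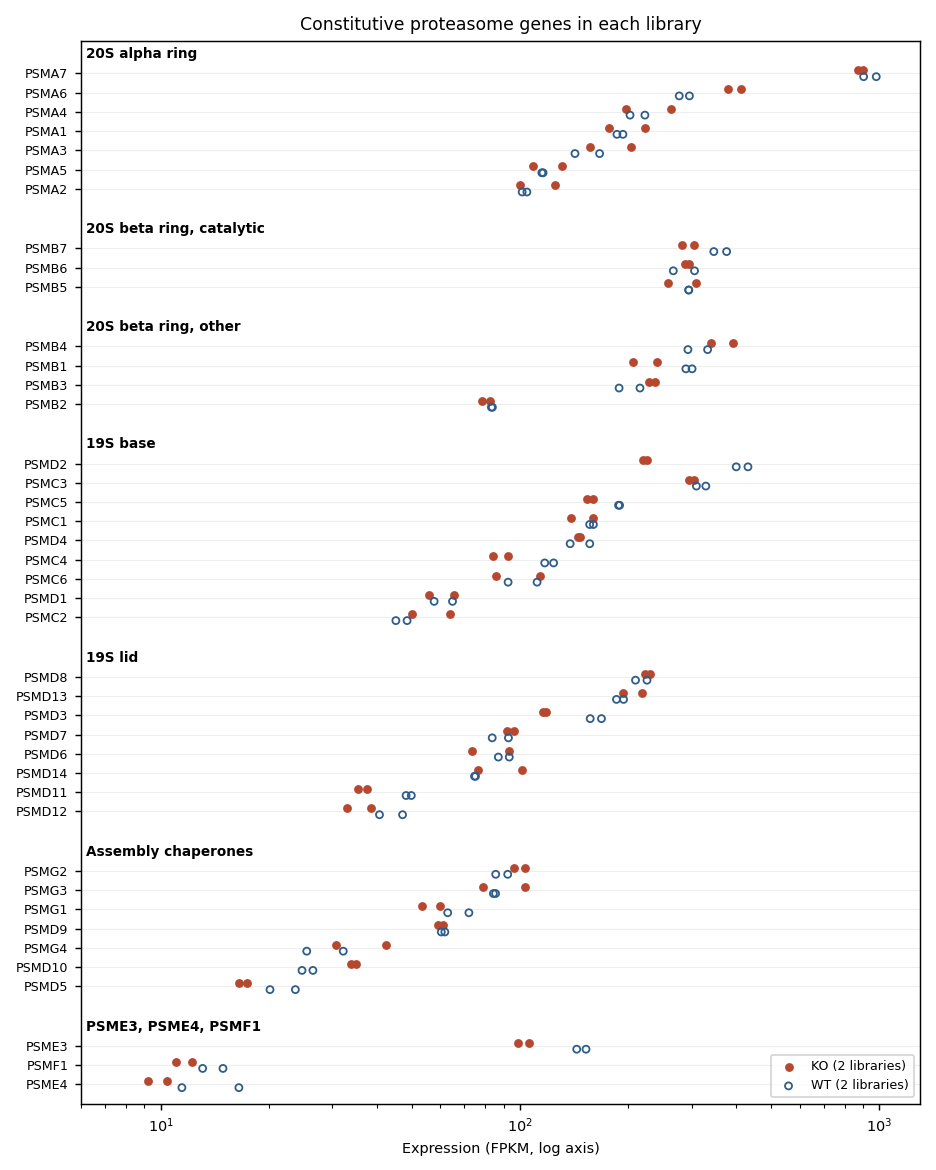
FPKM (log axis) of the 41 tested members in the 2 KO libraries (filled) and the 2 WT libraries (open), by place in the complex. PSMA7 lies furthest to the right, between 872.8 and 979.6 FPKM, PSME4 and PSMF1 furthest to the left, and in most rows KO and WT points lie close together.

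Levels per length covered a wide range although the subunits of the complex are present in equal number. Averaged over the 4 libraries, PSMA7 (914 FPKM) stood 2.68 times above PSMA6 (341), and its lowest library lay above the highest library of any other member. The second place differed by group, with PSMA6 in KO (395.0 FPKM) and PSMD2 in WT (415.1 FPKM). In the order of the means over all 4 libraries, from PSMA6 down to PSMD14 (81.9 FPKM, place 30) the range of each member overlapped with that of the next. These ranges pool KO and WT, so an overlap does not mean that the order of neighbours changed within a library. Within the core PSMB2 was the lowest of the 14 ubiquitous subunits, at 81.9 FPKM. The regulator subunits PSMD12 (39.8 FPKM), PSMD11 (42.8), PSMC2 (51.9) and PSMD1 (61.0) were the lowest of the 17 genes of base and lid. PSMF1 and PSME4, at 12.8 and 11.9 FPKM, were the lowest tested members.

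Of the 7 assembly chaperone genes PSMD10 was the one that passed. PSMD10, also called gankyrin, is a base chaperone that binds PSMC4 and is known as an oncoprotein in liver cancer. It was at 33.9 and 34.9 FPKM in KO, against 24.7 and 26.5 FPKM in WT, without overlap (0.41 ± 0.12 SE, limma adjusted p 0.041). The annotation lists 3 pseudogenes of it, and it did not pass under median-of-ratios scaling (0.31, adjusted p 0.097) or with the GC correction (0.27, adjusted p 0.108). PSMD5, another base chaperone, was at 16.6 and 17.4 FPKM in KO and at 23.7 and 20.2 FPKM in WT (-0.35, adjusted p 0.099), and PSMD9 differed by -0.02. PSMD5 passed under median-of-ratios scaling (-0.45, adjusted p 0.047) and with the GC correction (-0.49, adjusted p 0.010). The core chaperones PSMG1, PSMG2, PSMG3 and PSMG4 differed by -0.24, 0.16, 0.08 and 0.32 and did not pass (adjusted p 0.184 to 0.686). PSMG4 had the largest positive difference of the members that did not pass, at 30.7 and 42.3 FPKM in KO and 25.5 and 32.2 FPKM in WT, with overlapping groups. POMP, which closes the assembly of the core and lies outside the symbol rule, was at 80.2 and 112.8 FPKM in KO and at 82.3 and 76.4 FPKM in WT (0.26, adjusted p 0.271).

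Of the other caps and regulators, PSME3 fell. It encodes the PA28 gamma activator, a nuclear cap that works without ubiquitin and ATP. It was at 105.9 and 98.6 FPKM in KO, against 143.8 and 152.6 FPKM in WT, without overlap (-0.53 ± 0.11 SE, limma adjusted p 0.012). PSME4, the PA200 activator linked to the breakdown of acetylated histones, was at 10.5 and 9.24 FPKM in KO and at 16.5 and 11.5 FPKM in WT (-0.45, adjusted p 0.113), and PSMF1, the gene of the core-binding protein PI31, at 12.2 and 11.1 FPKM in KO and at 13.1 and 14.9 FPKM in WT (-0.24, adjusted p 0.235). In neither of these genes did the groups overlap, but WT library 1 of PSME4 stood apart from the other 3, and PSME4 passed without WT library 2 and with the GC correction (-0.59, adjusted p 0.022). The related PA28 genes that the rule leaves out rose, PSME1 by 1.21 and PSME2 by 0.99 on the log2 scale. The summed FPKM of PSME1 and PSME2 was 3.66 and 3.77 times that of PSME3 in KO, against 1.15 and 1.28 times in WT.

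The immunoproteasome genes, which are not members, set the catalytic members in context. In cells exposed to interferon the subunits PSMB8, PSMB9 and PSMB10 are known to replace PSMB5, PSMB6 and PSMB7, which changes the peptides made for MHC class I. PSMB10 rose to 33.6 and 25.5 FPKM in KO, against 7.53 and 8.04 FPKM in WT, PSMB8 to 24.1 and 14.6 FPKM in KO, against 4.25 and 6.70 FPKM in WT, and PSMB9 to 4.32 and 2.6 FPKM in KO, against 0.15 and 0.28 FPKM in WT. All 5 immunoproteasome and PA28 genes passed (limma adjusted p 0.0011 to 0.0059). The constitutive counterparts lay between 258.2 and 375.6 FPKM in the 4 libraries, so the immune form remained the smaller part of each pair. PSMB10 made up 10.7% and 7.70% of the summed FPKM of PSMB10 and PSMB7 in KO, against 2.13% and 2.10% in WT. PSMB8 made up 8.53% and 4.53% of its pair with PSMB5 in KO, against 1.42% and 2.22% in WT, and PSMB9 1.48% and 0.875% of its pair with PSMB6 in KO, against 0.0562% and 0.0915% in WT. In each pair both KO libraries lay above both WT libraries, with KO library 1 the highest. With 2 libraries against 2 the exact permutation test (two-sided) gave 0.333 for each pair, the smallest p it can give.

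**Figure D4:**
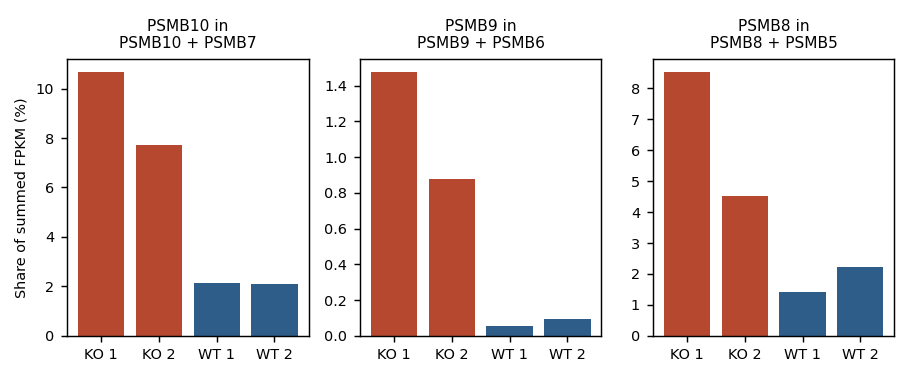
Share of the immune subunit in the summed FPKM of each catalytic pair (%), by library, with the 2 KO libraries left of the 2 WT libraries and each axis from 0. The KO bars are the taller ones in all 3 panels, from 0.875% to 10.7%, and the scales differ between panels.

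Genes around the complex were taken from lists, to be read beside the 16.2% of all tested genes that were higher and the 10.8% that were lower. Of the 12 accessory proteasome genes in the table, ZFAND5 rose and 3 fell. AKIRIN2, needed for the import of proteasomes into the nucleus, fell by 1.07 on the log2 scale, to 14.1 and 12.6 FPKM in KO, against 27.6 and 30.6 FPKM in WT. ADRM1, the ubiquitin receptor that docks on PSMD1, fell by 0.48 to 322.8 and 322.5 FPKM in KO, against 441.9 and 457.0 FPKM in WT, and KIAA0368, the proteasome scaffold also named ECPAS, fell by 0.48. ZFAND5, an activator of the proteasome, rose by 0.39. The small lid subunit SEM1, listed as SHFM1, was at 102.3 and 163.6 FPKM in KO and at 118.6 and 122.3 FPKM in WT (0.10, adjusted p 0.726), and its KO libraries lay on both sides of WT. Of the 11 genes of VCP and its adaptors and of the shuttle factors that bring substrates to PSMD2, 2 fell, beside 10.8% of all tested genes. The groups did not overlap in any of the 11, with KO below WT in 10, beside 68.0% of all tested genes without overlap in either direction. VCP, the segregase, fell by 0.52, to 145.8 and 149.7 FPKM in KO, against 209.4 and 213.9 FPKM in WT, and the shuttle factor gene RAD23B fell by 0.69. UBA1, the main ubiquitin-activating enzyme, fell by 0.52, to 62.2 and 57.7 FPKM in KO, against 84.1 and 88.5 FPKM in WT.

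Complexes of other kinds were read in the same way. Of the 8 genes of the chaperonin TRiC, which folds actin and tubulin, 6 were lower in KO, beside 10.8% of all tested genes, and the median log2 fold change was -0.49, beside 0.074 over all tested genes. TCP1 fell by 1.32, CCT7 by 0.85, CCT4 by 0.72 and CCT5 by 0.56. Of the 9 genes of the COP9 signalosome, a relative of the lid, COPS7A (0.54) and COPS8 (0.41) were higher and COPS7B (-0.81) was lower in KO, with a median of 0.15, beside 16.2% higher and 10.8% lower of all tested genes. ZFAND5 and COPS8 did not pass under median-of-ratios scaling (adjusted p 0.115 and 0.107). Whether the proteasome differed from these complexes was not tested.

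Of the factors that control subunit genes, NFE2L1 was at 102.7 and 100.3 FPKM in KO and at 81.0 and 89.4 FPKM in WT (0.25, adjusted p 0.130). NFE2L2, its relative that answers oxidative stress, rose to 34.5 and 44.4 FPKM in KO, against 18.0 and 12.8 FPKM in WT (1.31 ± 0.19 SE, limma adjusted p 0.0044). MAFK, a partner of both, fell by 0.51. VCP, which extracts NFE2L1 from the endoplasmic reticulum, was lower as given above, and SEL1L, an adaptor of the degradation pathway of the endoplasmic reticulum, was at 8.46 and 7.49 FPKM in KO and at 5.92 and 4.58 FPKM in WT (0.53, adjusted p 0.051). Of the 10 genes of this list 1 was higher and 2 were lower (30.0% called). This stands beside 27.0% of all tested genes, with 16.2% higher and 10.8% lower.

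NFE2L1 and NFE2L2 bind the antioxidant response element, and its core TGACNNNGC was sought on both strands of the promoter windows of RefSeq (GRCh38.p14, 250 bases before to 50 after each start). Windows were held for 37 members. The core stood in those of 12 members (32.4%) and of 16.1% of all 27305 genes with a window. These 27305 genes include genes not tested here, so the members were not set against expressed genes alone. The matches in core, base and lid genes are shown, read along the motif with the core in capitals, because they let members that fell and members that did not pass be compared letter by letter.
PSMC4: cctccatagTGACCAAGCcggcctctg
PSMD3: cccctttgtTGACTCGGCcatcggcct
PSMA4: tgggcacgaTGACTCTGCaccgcctcc
PSMB3: cctccgtttTGACTTTGCaaccaaact
PSMC5: gggcggcgcTGACACAGCagatccggt
PSMD12: gacaaaaccTGACGCTGCaggctggag
PSMD1: ggaggcgacTGACTGAGCag
PSMC4 and PSMD3 fell, and the other 5 did not pass. The match of PSMD3 shown lies on chromosome 17 from 39980770 to 39980778, 37 bases before the start, and its window holds another match after the start. That of PSMC4 lies on chromosome 19 from 39971192 to 39971200, on the strand opposite to the gene. Over the 12 tested members with the core the median log2 fold change was -0.25, with 2 lower. Over the 23 tested members with a window but no match it was 0.06, with 2 higher and 3 lower. These counts are to be read beside the 16.2% of all tested genes that were higher and the 10.8% that were lower. Whether the match had a part in the difference was not tested. The same split gave medians of 0.05 with and -0.04 without a CCAAT box, 0.02 with and -0.06 without an ETS site, and -0.02 with and -0.06 without a GC box. Of the 5 lower members with a window, none held an ETS site, 2 held a CCAAT box and 3 a GC box. A match is a description of the letters and not a binding site. ETS sites (CCGGAAG) stood in the windows of 15 members (40.5%) and of 12.2% of the same 27305 genes. CCAAT boxes stood in those of 19 members (51.4%) and of 39.7% of these genes.

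The mature microRNA is shown because the KO label names it, with its seed, positions 2 to 8, in capitals (RefSeq, GRCh38.p14, chromosome 6, minus strand).
hsa-miR-3662: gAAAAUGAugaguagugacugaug
The matching letters TCATTTT were searched for in 3′ UTRs, taking the longest one that the annotation (GENCODE 29) gives a gene. Of the 41 tested members 8 held a match (19.5%), beside 33.2% of all tested genes with a 3′ UTR. These were PSMA1, PSMA4, PSMA5, PSMB2, PSMC1, PSMC2, PSME3 and PSME4. PSMC2 and PSME3 held 2 matches each, printed here as RNA-sense DNA with the match in capitals, since the fold changes of these members have opposite signs.
PSMC2, first match: aagtgattacttTCATTTTacaaattac
PSMC2, second match: attcttgattttTCATTTTtatgaactt
PSME3, first match: accggggatgcaTCATTTTtactcccaa
PSME3, second match: cgtcctacccagTCATTTTctttacctt
PSME3 fell by 0.53 and PSMC2 differed by 0.27 without passing, as given above. The median log2 fold change was -0.005 over the 8 members with a match (range -0.53 to 0.27) and -0.023 over the 33 without (range -0.89 to 0.46). Members with a match had longer 3′ UTRs, with a median of 2581 bases against 348. Over all tested genes with a 3′ UTR these lengths were 2749 and 874.5 bases. The median log2 fold changes over all these genes were 0.09 with a match and 0.058 without. The shares of genes with a match were not adjusted for 3′ UTR length.

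The genomic surroundings of the changed members were read from the annotation, within 500 kb on either side. Counts of neighbours are to be read beside the 16.2% of all tested genes that were higher and the 10.8% that were lower. Of the tested neighbours, 2 of 7 were higher and none lower for PSMA6, 1 of 15 higher and 4 lower for PSMC4, 4 of 19 higher and 1 lower for PSMD3, and 6 of 28 higher and 2 lower for PSME3. For PSMD11 1 of 6 was lower and for PSMD10 1 of 3 was higher. Of 16 tested neighbours of PSMD2, 1 was lower and none higher in KO. That gene was EIF4G1, a scaffold of translation initiation, which begins 5440 bases after the end of PSMD2 on the same strand. EIF4G1 fell to 127.1 and 112.2 FPKM in KO, against 235.8 and 237.5 FPKM in WT (-0.98, limma adjusted p 0.0020). ECE2, which ends 5677 bases before PSMD2, was at 21.4 and 28.8 FPKM in KO and at 19.6 and 18.7 FPKM in WT (0.36, adjusted p 0.137). EIF4G1 and ECE2 were picked after their values were seen.

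PSMB1 lies near the end of the long arm of chromosome 6, from 170535117 to 170553341 on the minus strand, on the same arm as the precursor of miR-3662 (134979338 to 134979432). All 3 tested neighbours within 500 kb were lower in KO. TBP, which begins 960 bases away on the opposite strand and encodes the TATA-binding protein, fell to 10.7 and 9.66 FPKM in KO, against 16.0 and 18.1 FPKM in WT (-0.69, limma adjusted p 0.013). PDCD2 fell by 1.12 and FAM120B by 0.57. From the precursor to the end of the chromosome 60 of 94 tested genes were lower and 1 was higher in KO (63.8% lower, beside 11.0% of all placed genes), with a median log2 fold change of -0.62, beside -0.41 for PSMB1. The part of this region in the value of PSMB1 was not tested.

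Libraries of the same group also differed in the members. Between the KO libraries 35 of 41 members were higher in library 2 than in library 1 (85.4%), beside 51.8% of all tested genes with a transcript. The median of these differences was 0.125 on the log2 scale over the members and 0.01 over all. The widest was that of PSMG4, at 0.45. Of the 8 members past the threshold, PSMD2, PSMD3 and PSME3 were lower in KO library 2 than in KO library 1, and the other 5 were higher there. Between the WT libraries 23 of 41 members were higher in library 2 (56.1%), beside 55.0% of all tested genes with a transcript.

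The GC content of the longest coding transcript moved with these within-group differences. Across the 41 members the Spearman correlation of GC content was -0.40 with the difference between the KO libraries and 0.56 with that between the WT libraries, beside -0.38 and 0.62 across 10880 tested genes. With the log2 fold change between KO and WT it was -0.18 over the members and -0.17 over all. These are correlations across genes that share the same 4 libraries, and genes are not independent replicates. After a correction for GC content, chosen after seeing the data, 1 member was higher and 9 were lower in KO, and PSMD2 stood at -0.88. Over all genes 1957 were then higher and 1943 lower of 10880 tested (35.8% called), against 1906 higher and 1278 lower without the correction. Lower calls thus rose over all genes too, but did not outnumber the higher ones there.

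**Figure D5:**
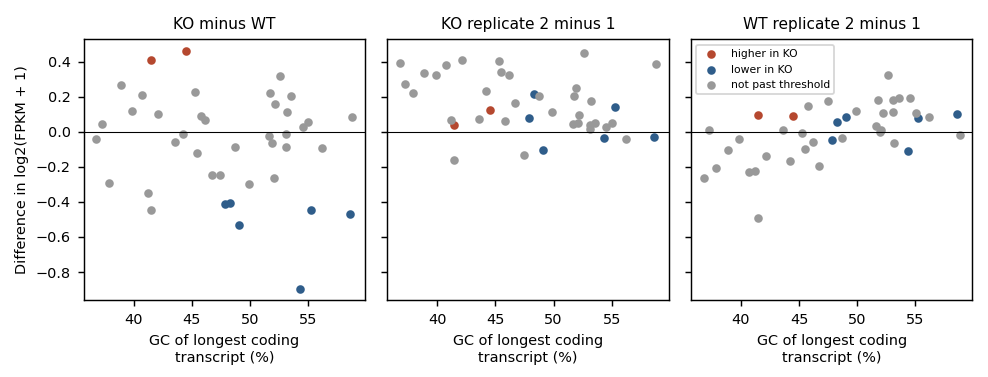
Difference in log2(FPKM + 1) against the GC content of the longest coding transcript (%) for the 41 tested members: KO minus WT, KO library 2 minus 1, and WT library 2 minus 1. Points in the middle panel lie mostly above 0 and slope down with GC content, those on the right slope up, and PSMD2 is the lowest point on the left at -0.89.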

How the data were processed

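RNA was extracted with Trizol and libraries were made with an Illumina TruSeq RNA kit, per the labels' protocols. The deposited table holds FPKM per gene to 2 decimals, made by the authors. The submitters' processing notes name HISAT, StringTie, Cufflinks, GATK and the build hg38, without their roles. Read counts were not used here. FPKM are relative to each library's total, so a few abundant genes can shift all others. The table cannot check the knockout, since mature microRNAs are too short for such libraries.

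Genes that reached 1 FPKM in 2 or more libraries entered the test on log2(FPKM + 1) with limma 3.58.1 (R 4.3.3, trended variance), KO over WT, with Benjamini-Hochberg adjustment over all 11786 genes. Fold changes are on the log2(FPKM + 1) scale, which understates changes of low genes. The procedure was tested on simulated data. Named were all members, the immunoproteasome and PA28 genes, POMP, ADRM1, SHFM1, NFE2L1 and up to 4 genes of each other list by smallest p. Members and lists were chosen with earlier results of these data known. Of the 20804 genes 16289 were matched to GENCODE 29, all 43 members among them. Alternatives were the pseudocount, the filter, scaling, a replicate block, leaving out each library and, added later, a GC correction and a crossed block. One result of the gene lists is not reported here.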

Additional observations from a re-analysis of the deposited data

How the results depend on the processing

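Depth is unknown, so precision at low FPKM cannot be given, and with 2 libraries a group the variance rests on the pooled trend. PSMD2 was lower and passed in all 11 alternatives (log2 fold change -1.003 to -0.84, limma adjusted p 0.00013 to 0.045). The other 7 members that passed kept their direction in all 11 and their call in 3 to 8 of them. With a pseudocount of 0.1 or a filter of 5 FPKM the counts were again 2 higher and 6 lower. Over all genes the pseudocount of 0.1 gave 1815 higher and 1248 lower (26.0% called). The filter of 5 FPKM gave 1420 higher and 1181 lower of 8457 tested genes (30.8% called). Without a filter on low values 0 members were higher and 1 lower, and 3 immunoproteasome genes passed, while 525 of 19833 genes passed in all. With median-of-ratios scaling 1 member was higher and 9 were lower, with a member median of -0.13, beside 3241 calls over all genes (1413 higher, 1828 lower) and an all-gene median of -0.021. With the GC correction 1 was higher and 9 were lower, with a median of -0.068, beside 3900 calls over all genes (1957 higher, 1943 lower) and an all-gene median of -0.0023. Leaving out one library at a time gave 0 to 1 members higher, 1 to 4 lower, a member median of -0.10 to 0.049, and 4 to 5 immunoproteasome genes; a group left with 1 library was assumed to vary like the other. All-gene calls then were 1411 to 1984, against 3184 in all libraries. The cause of these shifts was not tested. With either KO library left out PSMB9 did not reach the filter, so only 4 of the 5 immunoproteasome and PA28 genes were tested there. The differences in immune share, KO minus WT, were 5.59 to 8.55 percentage points for PSMB10, 0.801 to 1.40 for PSMB9 and 2.70 to 6.71 for PSMB8.

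Members that had not passed changed sign in places. Under scaling these were PSMA1 (-0.041), PSMA4 (-0.0055), PSMA5 (-0.062), PSMB6 (-0.080), PSMD7 (-0.019), PSMD8 (-0.053), PSMG3 (-0.023) and also SHFM1 (-0.0051). With the GC correction they were PSMA2 (-0.062), PSMA4 (-0.022), PSMA5 (-0.20), PSMD4 (0.0080), and also SHFM1 (-0.11) and POMP (-0.058). Leaving out one library at a time gave PSMA1 -0.096 to 0.23, PSMA2 -0.045 to 0.28, PSMA4 -0.10 to 0.31, PSMA5 -0.089 to 0.18, PSMB5 -0.19 to 0.063, PSMB6 -0.069 to 0.13, PSMC1 -0.19 to 0.015, PSMC6 -0.24 to 0.16, PSMD1 -0.13 to 0.10, PSMD4 -0.10 to 0.079, PSMD6 -0.29 to 0.049, PSMG3 -0.11 to 0.28 and SHFM1 -0.23 to 0.44.

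Libraries of the same number did not deviate together (correlation -0.177 over 11786 genes), so the numbers were not taken as pairs. With the replicate block 1 member was higher and 5 were lower, with 2864 calls over all genes. With the crossed block, added after seeing the data, 2 were higher and 6 lower, with 4170 calls.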
